A study of Mus musculus with 6 samples.

Results

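The small nucleolar RNA (snoRNA) host genes Gas5, Snhg1, Snhg3, Snhg4, Snhg5, Snhg6, Snhg8, Snhg12, Snhg15 and Snhg20 were followed after knockdown of Npm1 in mouse embryonic stem cells. They were chosen by gene symbol as noncoding hosts of intronic snoRNAs, 10 of 52535 rows in the authors' deposited table, and every one had a row. RNA came from E14, a line of mouse embryonic stem cells grown in N2B27 medium with LIF and 2i, the kinase inhibitors that hold the naive state. The controls were wild-type cells transfected with a control siRNA (3 samples), and the treated cells were the same line transfected with an siRNA against Npm1 (3 samples), all collected 3 days later. Npm1 encodes nucleophosmin, a protein of the nucleolar granular component, and the series title concerns the role of that component in holding chromatin at nucleoli. Npm1 was thus lowered and not removed: in the authors' deposited table its log2 fold change was -1.14 (95% interval -1.29 to -0.996), or 45.3% of control, and the direction of every ratio was read from that value, so it is no separate check of the labels. Separate cultures are not stated for the replicates, and each p-value therefore covers the spread among these 6 libraries, which could be technical.

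A snoRNA host gene is transcribed and spliced, and its snoRNAs are trimmed out of the excised introns. The snoRNAs join nucleolar proteins to guide chemical changes of ribosomal RNA, with box C/D snoRNAs guiding ribose methylation and most box H/ACA snoRNAs guiding pseudouridylation. The spliced host RNA is often a by-product: it begins with a pyrimidine tract like that of ribosomal protein mRNAs, is loaded onto ribosomes through short reading frames with early stop codons, and is destroyed by nonsense-mediated decay (NMD). The level of the spliced host RNA therefore depends on transcription and on ongoing translation, and Gas5 was first found as a transcript that accumulates when growth stops.

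Of the 10 host genes, 9 were tested and none was called higher or lower after Npm1 siRNA (0 of 9 at a Benjamini-Hochberg adjusted p under 0.05, the authors' p-values adjusted over all 14284 tested genes). Over all tested genes the share called was 4.3%, or 614 genes, with 2.23% higher and 2.07% lower. A count of 0 among 9 is near that share. At an unadjusted p under 0.05 the count was also 0 of 9, against 16.3% of all tested genes. Snhg3 was listed at 0 and could not be tested. The median log2 fold change over the 9 was 0.029 in the authors' deposited table, beside 0.0019 over all tested genes, with 6 values above 0 and 3 below. In bulk RNA, fewer cells that express a gene and less of its RNA per cell cannot be told apart.

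The introns of these hosts carry their products. In the GENCODE annotation of GRCm38, 9 of the 10 symbols were matched, and inside those 9 genes lay 29 separate small RNAs on the host's strand, all 29 of them within an intron of at least 1 spliced transcript. Of those in Gas5, Mir5117 is named as a microRNA. Gas5 held 9, Snhg1 held 8, Snhg12 held 4, Snhg3 and Snhg5 held 2 each, and the others held 1 each. The small RNA of Snhg20 was a scaRNA, the relative of snoRNAs that works in Cajal bodies. The following 4 snoRNA sequences (GENCODE, GRCm38, written 5′ to 3′ as DNA) show what is released from box C/D hosts and from box H/ACA hosts, and include Snord87 and Snora16a, the only 2 of the 29 with a mean above 0. GENCODE lists Snora16a as 2 records that differ by 1 base at the 5′ end, and the shorter is shown. Capitals mark the letters TGATGA and CTGA, the boxes C and D, or the ACA box near the end.
Snord47 in Gas5, chr1:161038082-161038158, plus strand: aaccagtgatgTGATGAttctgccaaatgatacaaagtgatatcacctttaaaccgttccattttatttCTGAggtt
Snord87 in Snhg6, chr1:9942463-9942549, minus strand: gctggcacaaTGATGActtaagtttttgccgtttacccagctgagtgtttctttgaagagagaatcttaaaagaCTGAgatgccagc
Snora24 in Snhg8, chr3:123507937-123508066, minus strand: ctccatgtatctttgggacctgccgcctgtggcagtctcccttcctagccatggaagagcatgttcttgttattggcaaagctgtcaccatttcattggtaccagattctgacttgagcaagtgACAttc
Snora16a in Snhg12, chr4:132309465-132309600, plus strand: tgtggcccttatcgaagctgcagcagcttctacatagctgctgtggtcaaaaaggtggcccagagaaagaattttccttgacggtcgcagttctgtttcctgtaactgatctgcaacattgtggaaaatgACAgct
The search ran on the RNA strand alone. TGATGA starting in the first 20 bases and CTGA in the last 20 were both found in 69.4% of 98 annotated transcripts named Snord, and ACA within the last 8 bases in 95.2% of 42 named Snora.

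**Figure D1:**
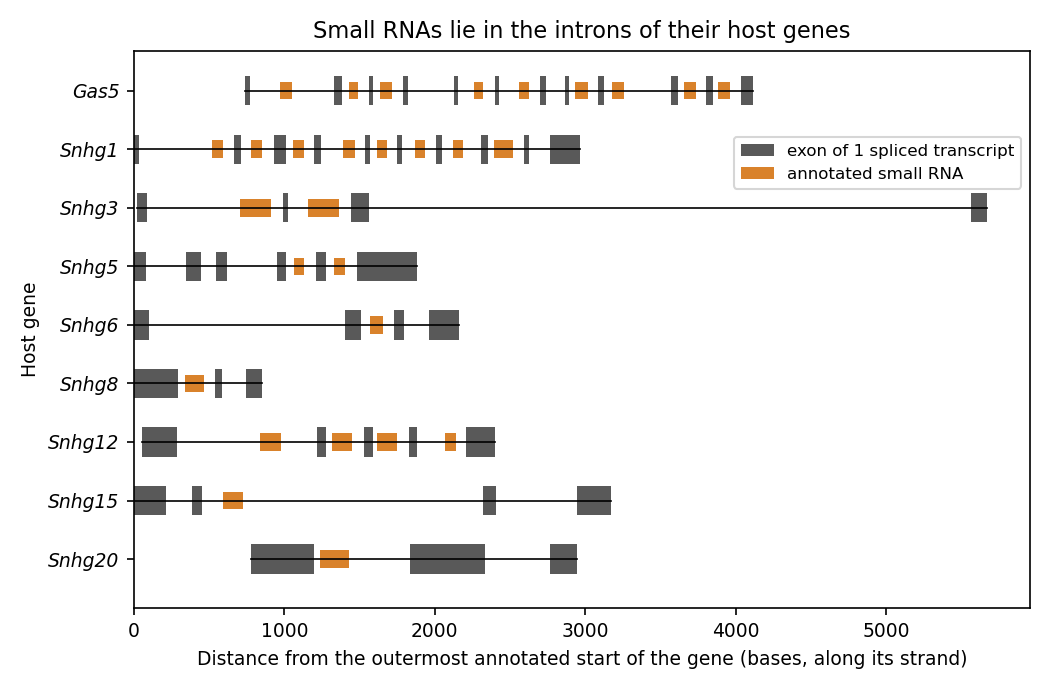
Gene maps of the 9 host genes in the annotation, as distance in bases from the outermost annotated start along the gene's strand, with the exons of 1 spliced transcript in grey and annotated small RNAs in orange. The 9 small RNAs of Gas5 and the 8 of Snhg1 each lie in a separate intron of the drawn transcript, whereas Snhg6, Snhg8, Snhg15 and Snhg20 carry 1 each.

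The start sites were examined because a pyrimidine tract at the start of a transcript is tied to translational control. RefSeq start windows (GRCm38.p6) were matched for 8 of the 10 host genes, and Snhg4 and Snhg6 had no window. A C followed by at least 4 bases that are each C or T, with that C no more than 10 bases from the annotated start and on the gene's own strand only, was found in 5 of the 8 (Gas5, Snhg3, Snhg5, Snhg8 and Snhg12). It was found in 34.4% of all 27025 genes with a window, and in 39 of 63 tested ribosomal protein genes with a window, a family whose mRNAs begin with such tracts. Below are 20 bases before and 30 bases from the start, 5′ to 3′, with the tract in capitals, for the 5 genes and for Snhg1, where the pyrimidines at the start are interrupted too soon to be counted.
Gas5, chr1:161035146-161035195, plus strand: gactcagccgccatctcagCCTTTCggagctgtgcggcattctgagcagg
Snhg5, chr9:88522868-88522917, minus strand: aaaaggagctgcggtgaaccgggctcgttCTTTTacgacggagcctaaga
Snhg8, chr3:123508307-123508356, minus strand: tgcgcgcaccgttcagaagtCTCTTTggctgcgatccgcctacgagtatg
Snhg12, chr4:132308658-132308707, plus strand: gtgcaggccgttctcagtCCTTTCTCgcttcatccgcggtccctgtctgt
Snhg3, chr4:132353657-132353706, minus strand: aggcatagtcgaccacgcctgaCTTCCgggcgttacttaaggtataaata
Snhg1, chr19:8723467-8723516, plus strand: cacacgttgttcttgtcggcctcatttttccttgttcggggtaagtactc
Gas5 has a second annotated start upstream with no such tract. In Snhg5 and Snhg3 the tract begins 9 and 2 bases past the annotated start, so it is not at that start itself. A match describes letters in these windows and is not a mapped start in these cells.

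Host transcripts covered a wide range of levels. No value per library was available, so levels are the authors' mean over all 6 libraries, and the level of each group is an approximate value derived from that mean and the fold change. Means ran from 246 normalized counts for Snhg15 to 6744 for Gas5 in the authors' deposited table. Gas5 alone made up 38.5% of the summed mean of the 9 genes, and Gas5, Snhg5 and Snhg1 together 75.8%. The sum over the 9 genes was an approximate 17424 normalized counts in control and 17639 after Npm1 siRNA, a derived ratio of 101% with no error available.

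On a scale of normalized counts per kilobase of merged exons, Snhg5 had the highest level of the 8 genes with both a length and a signal, at 2155, followed by Gas5 at 1794 and Snhg1 at 949.8 in the authors' deposited table divided by length. Snhg8 (777), Snhg6 (496) and Snhg12 (385) were in the middle of this order of levels per kilobase, and Snhg15 (181) and Snhg20 (158) were lowest. The order was the same with the length of the longest transcript, which gave 3053 for Snhg5 and 2639 for Gas5. Merged exons include retained introns in Gas5, where 20 of 25 annotated transcripts are of that kind, and in Snhg1, where 14 of 18 are. The same holds for Snhg5 (3 of 6) and Snhg8 (1 of 3), and in Snhg12 merged exons cover the whole gene span of 2402 bases. The longest transcript can hold intron sequence too: in Snhg1 it has 2728 bases of a gene span of 2969. The second scale is therefore no separate check, and the order per kilobase of fully spliced RNA was not computed. Without values per library, whether neighbours in this order differ beyond their spread could not be tested.

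**Figure D2:**
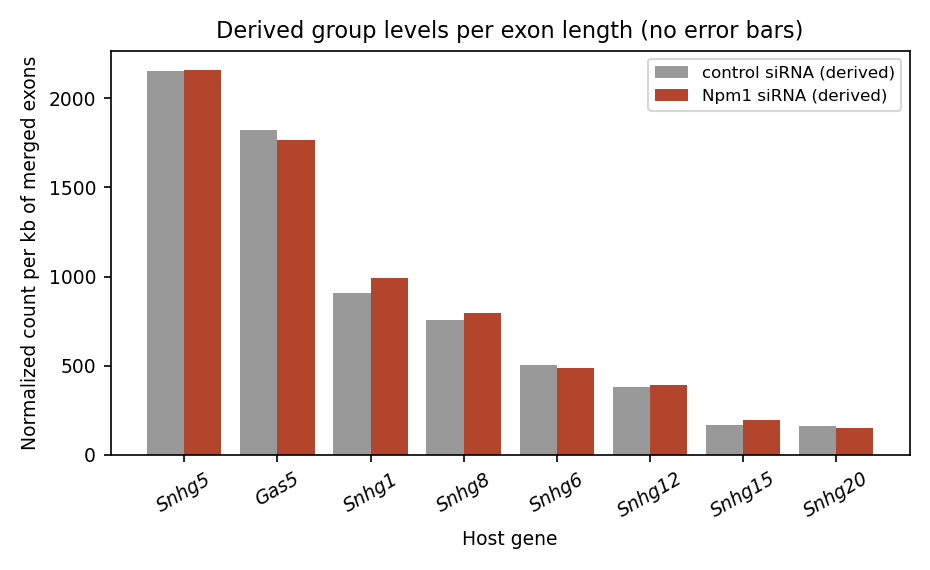
Normalized count per kilobase of merged exons for 8 host genes (vertical axis), the level of each siRNA group being computed from the mean over all libraries and the ratio; no error bar can be drawn. The paired bars are close for every gene, from Snhg5 at 2155 per kilobase over both groups to Snhg20 at 158.

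Among hosts of box C/D snoRNAs, Gas5 (growth arrest specific 5, chromosome 1, 161034422 to 161038539, GRCm38) had the most precise ratio of the 9 tested members. Its approximate level was 6847 normalized counts in control and 6641 after Npm1 siRNA. Its log2 fold change was -0.044 in the authors' deposited table, with a 95% interval of -0.16 to 0.068, which spans 89.7% to 105% of control (Benjamini-Hochberg adjusted p = 0.793). With its implied standard error of 0.057, a rise of 13.0% or a fall of 11.5% would have been the smallest to pass the test.

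Snhg5, which hosts Snord50a and Snord50b (chromosome 9, 88521050 to 88522929), was the closest to no difference. Its log2 fold change was 0.0050 in the authors' deposited table, with a 95% interval of -0.13 to 0.14 (91.2% to 110% of control, adjusted p = 0.9896). The derived levels were 3721 normalized counts in control and 3734 after Npm1 siRNA.

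Snhg1, the host of Snord22 among others (chromosome 19, 8723475 to 8726443), had the lowest p of the 9 genes. Its log2 fold change was 0.12 in the authors' deposited table, with a 95% interval of -0.015 to 0.26 (99.0% to 120% of control), and it missed the threshold (unadjusted p = 0.0804, adjusted p = 0.391). The derived levels were 2700 normalized counts in control and 2940 after Npm1 siRNA. Snhg1 would have needed a rise of 16.1% to be called, and its point estimate was 108.9% of control.

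Snhg6, the host of Snord87 (chromosome 1, 9941959 to 9944118), had a log2 fold change of -0.060 in the authors' deposited table (95% interval -0.31 to 0.19, adjusted p = 0.891). Of its exon bases, 11.1% lie opposite exons of Mcmdc2, and that gene had a mean of 45.8 normalized counts and a log2 fold change of -0.74 in the authors' deposited table (adjusted p = 0.401). While the library kit was stranded, whether the authors' counting used strand is not given in the sources used here. The contribution of Mcmdc2 reads to Snhg6 was not tested.

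Among hosts of box H/ACA snoRNAs, Snhg4 had the second lowest p of the members. Snhg4 had a log2 fold change of 0.14 in the authors' deposited table (95% interval -0.033 to 0.32, or 97.7% to 125% of control, adjusted p = 0.455). Its mean was 1397 normalized counts, with derived levels of 1329 in control and 1466 after Npm1 siRNA. Snhg4 was not matched by symbol in the annotation used here, so no structure is given for it.

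Snhg8, the host of Snora24 (chromosome 3, 123507552 to 123508404), had a log2 fold change of 0.072 in the authors' deposited table (95% interval -0.20 to 0.34, adjusted p = 0.878). Snhg15, the host of Snora9 (chromosome 11, 6525591 to 6528760), had the largest ratio and the widest interval of the 9 genes. Its log2 fold change was 0.21 in the authors' deposited table (95% interval -0.16 to 0.57, or 89.7% to 148% of control, adjusted p = 0.666). With a mean of 246 normalized counts, Snhg15 would have been called only from a rise of 48.3% or a fall of 32.6%.

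Snhg3, the host of Snora73a and Snora73b (U17, a snoRNA that acts in cleavage of the ribosomal RNA precursor), was listed at 0 in the authors' deposited table, so the data give no ratio for it. In the annotation (chromosome 4, 132348014 to 132353686) Snhg3 overlaps Rcc1, a chromatin-bound exchange factor, on the same strand, and 13.7% of its exon bases are shared with exons of Rcc1. A further 71.5% lie opposite exons of Gm17300. Rcc1 had a mean of 1686 normalized counts and a log2 fold change of 0.030 in the authors' deposited table (95% interval -0.16 to 0.22, adjusted p = 0.934), and Gm17300 a mean of 48.2 and a log2 fold change of 0.011 in the authors' deposited table (adjusted p = 0.997). How the authors assigned reads shared by these genes is not given in the sources used here, and the part of that overlap in the listed 0 was not tested. Snhg7, another noncoding host, was also listed at 0.

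Snhg12 carries both classes, with Snora16a, Snora44, Snora61 and Snord99 in its introns (chromosome 4, 132308623 to 132311024). Its log2 fold change was 0.029 in the authors' deposited table (95% interval -0.20 to 0.26, adjusted p = 0.947), with derived levels of 916 normalized counts in control and 934 after Npm1 siRNA. Snhg20, which hosts the scaRNA (chromosome 11, 117076008 to 117078955), had the lowest ratio of the members. Its log2 fold change was -0.11 in the authors' deposited table (95% interval -0.40 to 0.19, or 75.6% to 114% of control, adjusted p = 0.823).

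**Figure D3:**
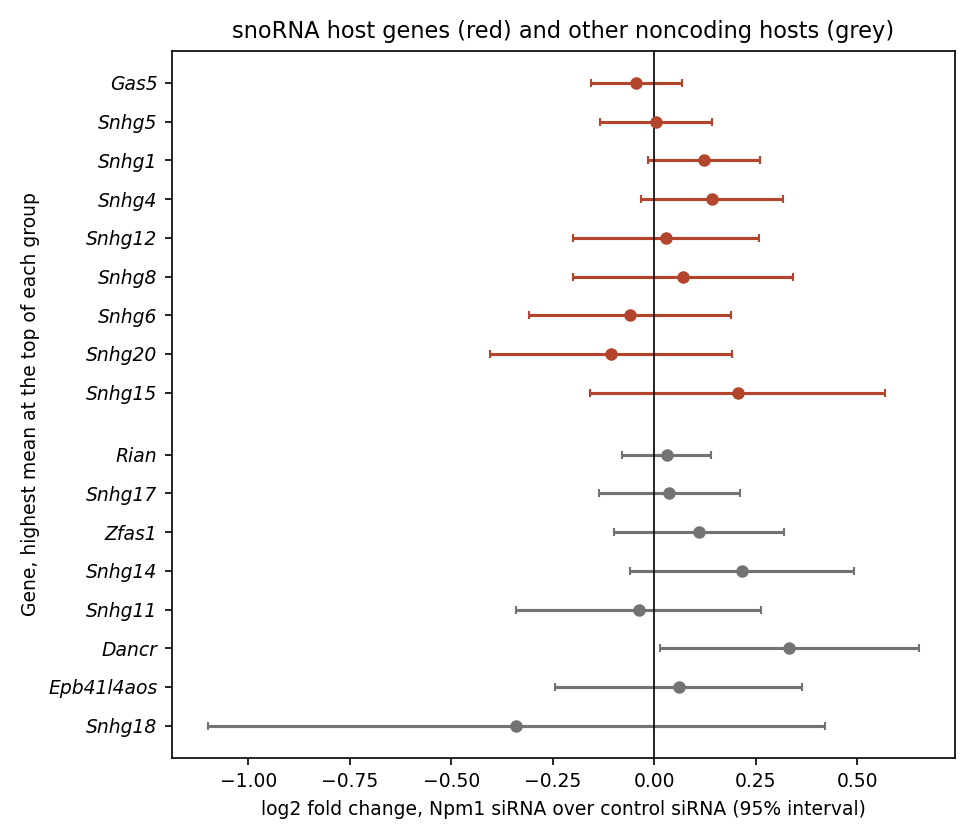
Log2 fold change of each gene, Npm1 siRNA over control siRNA (horizontal axis), with its 95% interval from the implied standard error. All 9 tested host genes (red) have intervals that include 0, from Gas5 (-0.16 to 0.068) to Snhg15 (-0.16 to 0.57); the 8 other tested noncoding hosts are grey, and the interval of Dancr lies above 0 without passing the adjusted test.

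Taken by their intervals, all 9 genes were bounded within a fold of 1.5 in either direction, and Gas5, Snhg5 and Snhg1 most tightly, with both bounds between 89.7% and 120% of control. The median absolute log2 fold change was 0.072 over the 9 members and 0.11 over the 7649 tested genes in the same range of means, of which 5.77% were called. The median implied standard error was 0.12 for the members and 0.11 for those genes. A difference smaller than these intervals was not detectable with these samples. After subtraction of a smooth trend of fold change on length and GC content, the median over the 8 members with a known length moved from 0.017 to 0.096, Snhg6 turned to 0.0040, and none of the 8 passed the test.

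**Figure D4:**
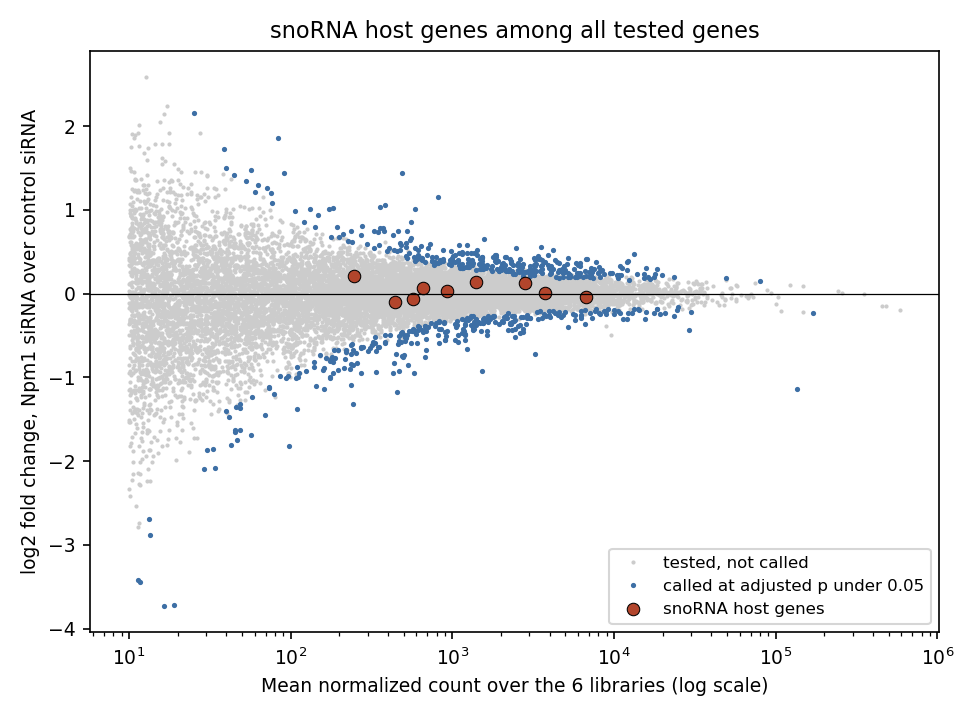
Mean normalized count over the 6 libraries (log scale) against log2 fold change for 14284 tested genes, with called genes in blue and the 9 tested host genes in red. The host genes sit between -0.11 and 0.21 at means from 246 to 6744, within the band of genes that were not called.

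Genes beside the hosts were also compared, because a host can share a promoter or reads with its neighbour. Of 7 other genes that overlap a host or lie within 1000 bases of it, 6 were tested and none passed (0 of 6 by adjusted p; Slc3a2 and Trnau1ap had an unadjusted p under 0.05). Slc3a2, the heavy chain of several amino acid transporters, starts 106 bases from Snhg1 on the opposite strand and had a log2 fold change of -0.18 in the authors' deposited table (95% interval -0.33 to -0.030, adjusted p = 0.182), beside 0.12 for Snhg1. Trnau1ap, a protein of selenocysteine insertion whose end faces that of Snhg12, had a log2 fold change of -0.30 in the authors' deposited table (95% interval -0.53 to -0.066, adjusted p = 0.143). Zbtb37, which starts 427 bases from the outermost start of Gas5, was at 0.14 in the authors' deposited table (adjusted p = 0.701), beside -0.044 for Gas5. Prss12, near the end of Snhg8, had a mean of only 0.64 normalized counts and was not tested. The difference between a host and its neighbour was not tested.

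Noncoding hosts outside the members were compared in the same way. Of 12 such genes listed, 10 had a row, 8 were tested and none passed (0 of 8, with 1 at an unadjusted p under 0.05). Dancr, the host with that p, had a log2 fold change of 0.33 in the authors' deposited table (95% interval 0.013 to 0.65, adjusted p = 0.279). Rian, an imprinted host of many C/D snoRNAs and the most abundant of these, was at 0.031 in the authors' deposited table (95% interval -0.079 to 0.14) and Snhg17 at 0.037. In the authors' deposited table Zfas1, a noncoding host that is also subject to nonsense-mediated decay, was at 0.11 (95% interval -0.0995 to 0.32, adjusted p = 0.695). The median over the 8 was 0.049, and the annotation types Snhg11, among them, as protein-coding. The annotation was also used in place of the list, counting only hosts of a snoRNA named Snord or Snora. Rian, Snhg17 and Epb41l4aos from the list are not among these. By it, 12 noncoding hosts outside the members were tested and none passed, with 2 at an unadjusted p under 0.05 and a median of 0.10. Among those 12 is Cct6a, counted there only because the annotation types it as a processed transcript, and it is also among the listed coding hosts below. The one with the lowest p, 1110038B12Rik, was named after its value was seen and was at 0.31 in the authors' deposited table (adjusted p = 0.0608), and it passed once the length and GC trend was removed (adjusted p = 0.0251).

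Protein-coding hosts carry the same kind of intronic snoRNA in a gene that also makes a protein. Of 15 coding hosts tested, 2 rose, none fell and 13 did not pass, a share called of 13.3% against 4.3% of all tested genes, and 6 had an unadjusted p under 0.05. These 15 had means from 4569 to 146913 normalized counts, whereas tested genes begin at a mean of 10. The shares therefore do not compare like with like. Taf1d, a subunit of the RNA polymerase I initiation factor, rose by a log2 fold change of 0.22 in the authors' deposited table (adjusted p = 0.0374), and Eif4a2, a translation initiation helicase, by 0.18 in the authors' deposited table (95% interval 0.066 to 0.30, adjusted p = 0.0498). Eif4a2 sat at the threshold and no longer passed after centring on the median gene (adjusted p = 0.0535). Taf1d no longer passed after the length and GC trend was removed (adjusted p = 0.0608), and neither passed with no filter on low means (adjusted p = 0.0654 for Taf1d and 0.0869 for Eif4a2). In the authors' deposited table Ncl, Nop56 and Hspa9, named after their values were seen, had an unadjusted p under 0.05 and values below 0, at -0.22 (adjusted p = 0.0739), -0.14 (adjusted p = 0.110) and -0.14 (adjusted p = 0.174). The median over the 15 was 0.016. By the annotation instead, counting only hosts of a snoRNA named Snord or Snora, 39 coding hosts other than ribosomal protein genes were tested. Only Eif4a2 was called. That is a share of 2.56%, below the 4.3% of all tested genes, with 7 at an unadjusted p under 0.05 and a median of 0.027. Both lists share genes, Eif4a2 among them. Taf1d, Hspa9, Ppan, Dkc1 and Eif4a1 are not among the 39, so the shares called rest on different genes. Of 24 ribosomal protein genes with an annotated snoRNA of such a name, none passed (5 at an unadjusted p under 0.05), with a median of -0.0051. Rpl4 and Rpsa, the 2 with the highest means, were at -0.12 and 0.044 in the authors' deposited table. Rpl23a, named after its value was seen, was at 0.50 (adjusted p = 0.0505) in the authors' deposited table and passed once the length and GC trend was removed (adjusted p = 0.0201). Ribosomal protein genes have many near-identical pseudogene copies, so its value and those of the other ribosomal protein hosts are uncertain.

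Genes of the decay pathway that removes spliced hosts were compared next. Of 15 NMD and exon junction factors, all were tested and none passed, with 5 at an unadjusted p under 0.05 and a median log2 fold change of -0.0044. Over all tested genes 4.3% were called, so a count of 0 called among 15 is near that share. The 5 of 15 at an unadjusted p under 0.05 are a larger share than the 16.3% of all tested genes, and that difference was not tested. Smg1, the kinase of the helicase Upf1, was at 0.17 in the authors' deposited table (adjusted p = 0.239). Smg5, Upf1 and Magohb, named here after their values were seen, were at 0.23 (adjusted p = 0.0575), 0.19 (adjusted p = 0.174) and -0.40 (adjusted p = 0.214) in the authors' deposited table. Of 9 decapping and exonuclease genes none passed, with 1 at an unadjusted p under 0.05 and a median of 0.049, and Ddx6 and Dcp2 were at 0.049 and -0.022 in the authors' deposited table. Of 4 known NMD targets among mRNAs, none passed and none had an unadjusted p under 0.05, with Atf4 at -0.039 and Ddit3 at -0.025 in the authors' deposited table.

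Among genes for proteins that package snoRNAs, none was called. Of 8 core snoRNP proteins none passed, 2 had an unadjusted p under 0.05, and the median log2 fold change was -0.056. Nop56, which has such a p, Nop58 and Dkc1 are also among the listed coding hosts above. Nop58 and Dkc1, a C/D scaffold protein and the pseudouridine synthase, were the most abundant and were at -0.095 and 0.017 in the authors' deposited table. Snu13, the protein that binds the C/D motif first, was named after its value was seen and was at -0.30 in the authors' deposited table (95% interval -0.50 to -0.091, adjusted p = 0.0812). Of 8 assembly factors none passed and none had an unadjusted p under 0.05, with a median of -0.083. Nolc1 and Ruvbl2 were at -0.031 and -0.058 in the authors' deposited table. Of 14 mRNAs other than ribosomal protein mRNAs that start with a terminal pyrimidine tract, none passed and 2 had an unadjusted p under 0.05, with a median of 0.016. Eef1a1 and Pabpc1 were at 0.0085 and 0.096 in the authors' deposited table. Eef2, Tpt1, Eef1b2 and Rack1 of this list are also among the listed coding hosts.

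**Figure D5:**
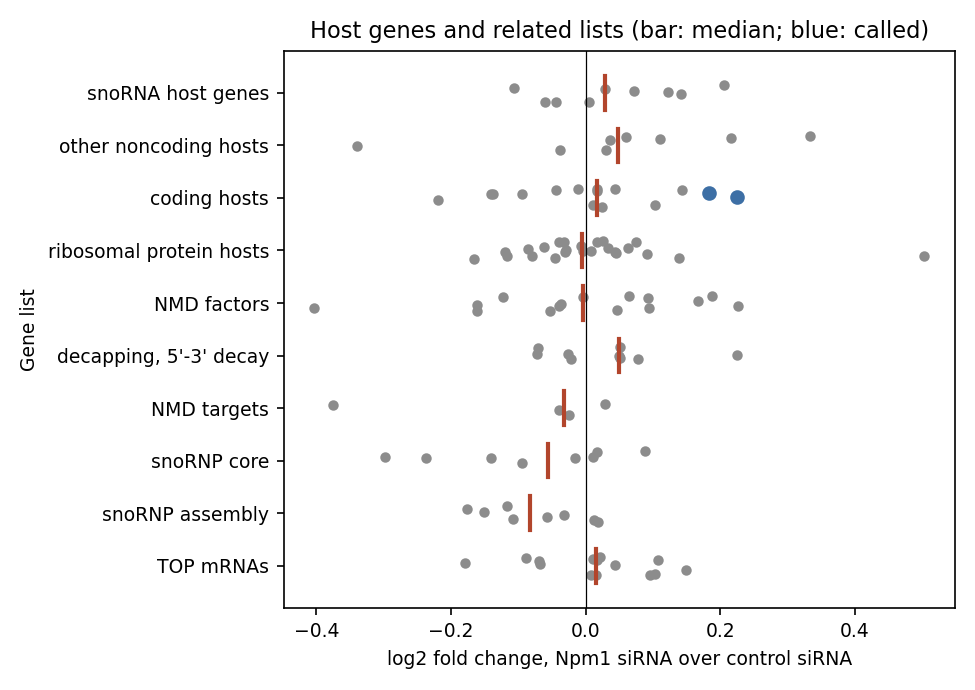
Log2 fold change (horizontal axis) of each tested gene in the host gene list and 9 related lists, with called genes in blue and the median of each list as a bar. The medians lie between -0.083 (snoRNP assembly) and 0.049, and the called genes shown are Taf1d and Eif4a2, both coding hosts.

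Stem cell markers were high and not called: all 8 were tested, with means from 3740 to 23793 normalized counts, and Tfcp2l1 and Esrrb were at 0.048 and 0.075 in the authors' deposited table. Markers of fibroblasts summed to 86.5 normalized counts over 8 genes, with Dcn and Postn listed at 0. Of 3 tested, none passed, with Pdgfrb and Col1a1 at -0.065 and -0.72 in the authors' deposited table. Of primitive endoderm (sum 70.5 over 5 genes, 2 tested) and trophectoderm markers (sum 658 over 5 genes, 3 tested) none passed, with Krt8 alone at an unadjusted p under 0.05. Gata4, Pdgfra, Eomes and Krt8, with the highest means in those lists, were at 0.49, -0.36, 0.26 and 0.45 in the authors' deposited table. Of 2 tested neuroectoderm markers, Sox1 rose (log2 1.26 in the authors' deposited table, adjusted p = 0.0159) from a mean of 70.9 normalized counts, and its part in the host values was not tested. Nes, the other tested one and the more abundant at a mean of 881, was at 0.0056 (adjusted p = 0.992), and the untested Pax6 and Zic1, with means of 9.95 and 3.11, were at -0.82 and -0.99 in the authors' deposited table.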

How the data were processed

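Polyadenylated RNA of 6 samples was sequenced from a single end with a stranded kit, per the labels' protocols. FastQC, Trimmomatic 0.36, STAR and DESeq2 are named in the submitters' processing notes, with the build GRCm38 (mm10). Not given in the sources used here are the counter, its strand setting, the annotation and the model. The deposited table holds, per the file headers, a mean normalized count (a signal value, read counts scaled per library and averaged by the authors over all 6 libraries), a log2 fold change and an unadjusted p-value per gene. It gives no value and no total per library, so depth per sample is unknown, and the edgeR and limma fits planned for such values could not be run.

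Benjamini-Hochberg adjustment was applied to the authors' deposited p-values of all genes whose mean was 10 or more, and a gene was called at an adjusted p under 0.05. Each standard error is the size of the log2 fold change over the normal quantile that its p implies, exact for a Wald test. The steps were tested on simulated data. Python 3.11.15, SciPy 1.17.1 and scikit-learn 1.9.0 were used, with GENCODE and RefSeq for annotation and sequence. The alternatives were other filters, recentring, a trend on length and GC content, a fold test and another adjustment. All members were named, and from each list the called genes, or the 2 with the highest mean, of which 1 is not reported here. Members and lists were chosen with earlier results of these data known.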

Additional observations from a re-analysis of the deposited data

How the results depend on the processing

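No host gene was called higher or lower under any of the 7 alternatives run, and the lowest adjusted p reached was 0.315 (Snhg1, trend on length and GC content subtracted). The other filters and the Benjamini-Yekutieli adjustment leave each log2 fold change as it is, so only recentring and the trend could change a sign. That adjustment can also only raise an adjusted p. Of 53 recomputed host values, 52 kept their sign and their side of the threshold, and most of these had a sign fixed in advance. The exception was Snhg6, at 0.0040 with that trend subtracted. The median over the members was 0.096 with the trend subtracted, over 8 genes, since Snhg4 had no length (0.017 for those 8 before); the cause was not tested. Over all genes, the 318 higher and 296 lower calls became 9 and 12 when a fold beyond 1.2 was tested, and 121 and 109 with the Benjamini-Yekutieli adjustment. Of 102 recomputed counts for the related lists, 95 were within 1.5 times, but most of these set 0 beside 0 and say little about stability. The counts above 0 in the main test were those of higher genes among coding hosts, other annotated coding hosts and neuroectoderm markers. Only the neuroectoderm count was kept in every setting where list counts were recomputed. Among coding hosts the 2 higher became 0 with no filter on low means, and 1 both when recentred and with the trend subtracted. Among other annotated coding hosts the 1 higher, Eif4a2, became 0 with no filter and when recentred. With the trend subtracted, 1 ribosomal protein host (Rpl23a) and 1 other noncoding host (1110038B12Rik, log2 0.35, adjusted p = 0.0251, against 0.31 and 0.0608 before) became called as higher. Leaving out replicates was not run, since the table holds no value per library. No paired analysis was possible because the table carries no replicate columns.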

Other observations

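Mature snoRNAs carry no poly(A) tail, and most snoRNA rows of these poly(A)-selected libraries were listed at 0. Of 138 rows named Snord or Snora, 50 had a mean above 0, 16 were tested and none passed (0 of 16, with 1 at an unadjusted p under 0.05, against 16.3% of all tested genes). Snora31 and Snora17 had the highest means, 103 and 88.7 normalized counts in the authors' deposited table, with log2 fold changes of 0.38 and -0.24. Snord87, inside Snhg6, had a mean of 13.9 normalized counts and a log2 fold change of -1.04 (unadjusted p = 0.194) in the authors' deposited table, and Snora16a, inside Snhg12, a mean of 7.23 and a log2 fold change of 1.97 (unadjusted p = 0.0923).

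Genes with the pyrimidine tract near an annotated start were called at a share close to that of the others. Of 3823 tested genes with the tract, 4.89% were called, and of 6403 without it, 4.54%. The median log2 fold changes were 0.0061 and 0.0011. Genes share libraries and are not independent replicates, so these are descriptions with no test. Of the tested hosts with the tract, Gas5 was at -0.044, Snhg5 at 0.0050, Snhg8 at 0.072 and Snhg12 at 0.029 in the authors' deposited table. Of those with a window and no tract, Snhg1 was at 0.12, Snhg15 at 0.21 and Snhg20 at -0.11 in the authors' deposited table.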
